A study of Mus musculus with 6 samples.

Results

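The genes described here are 10 genes of lipid transport: the apolipoproteins *Apoe*, *Apoc1*, *Apoa1*, *Apoa2* and *Apob*, the fatty acid binding proteins *Fabp1*, *Fabp2*, *Fabp4* and *Fabp5*, and lipoprotein lipase, *Lpl*. They are the rows carrying these symbols among the 55060 genes of the expression table, and each symbol matched 1 row. The set was chosen by name, with *Apoc1* and *Fabp1* selected on their falls in these same samples, so the differences of the 10 genes between the genotypes are given as a description and without a test. Apolipoproteins form the protein coat of the particles that carry fat and cholesterol in blood. Most are made by hepatocytes and by the absorptive cells of the gut, while *Apoe* is also made by macrophages. Fatty acid binding proteins carry fatty acids inside cells, each with its typical tissue, and lipoprotein lipase releases fatty acids from circulating particles and is also made by β cells.

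RNA was sequenced from islets of 3 Ctrl and 3 cKO samples of mice at 12 weeks of age. The cKO mice were *Ins2*-cre; *Parn* f/f, in which Cre under the *Ins2* promoter deletes the floxed exon of *Parn*, encoding a poly(A) ribonuclease, in β cells. The Ctrl group was made up of *Parn* f/f mice and other littermates, so the floxed allele was shared by the groups, and which Ctrl samples, if any, carried Cre is not given in the sources used here. Islets were freed with collagenase injected through the bile duct and picked by hand, so each sample also holds α, δ and other cells, and the labels do not say whether a sample came from 1 animal or several. *Parn* read 6.64, 8.34 and 7.38 FPKM (fragments scaled by gene length and library size) in Ctrl and was lower in cKO, at 4.97, 4.61 and 6.15, with no overlap between the groups. The islet hormone genes were far above all 10 genes in every sample: *Ins2* lay between 109030 and 178676, *Gcg* between 8219 and 15396 and *Sst* between 4166 and 7815. The size by which each library was scaled, inferred from the FPKM steps, was 15731223 to 18085944, and the reads recovered on genes summed to 16289408 to 17944775, more than that size in all 3 Ctrl samples and less in all 3 cKO samples. Over the 21211 genes whose mean FPKM reached 0.1, limma's moderated test on log2(FPKM + 1) called 0 genes (0%) at an adjusted p under 0.05. At an unadjusted p under 0.05, 651 genes (3.07%) were lower and 919 (4.33%) were higher in cKO, and when the FPKM of each sample were rescaled to the same sum these became 307 and 1789. The same test with voom weights on the reads behind the values called 0 genes after adjustment, with 605 lower and 972 higher at an unadjusted p under 0.05.

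The coding sequence of *Apoc1*, selected on its fall in these samples, is shown. The first 120 coding bases of the 4 fatty acid binding proteins are shown to let the family be compared by eye. They were read from the GENCODE M21 transcripts of GRCm38, and the capitals mark the start codon.
Apoc1: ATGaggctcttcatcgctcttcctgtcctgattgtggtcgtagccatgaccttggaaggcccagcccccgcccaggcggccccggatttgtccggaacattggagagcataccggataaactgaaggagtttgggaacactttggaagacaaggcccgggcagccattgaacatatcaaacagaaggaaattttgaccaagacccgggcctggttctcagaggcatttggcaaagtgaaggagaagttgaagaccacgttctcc
Fabp1: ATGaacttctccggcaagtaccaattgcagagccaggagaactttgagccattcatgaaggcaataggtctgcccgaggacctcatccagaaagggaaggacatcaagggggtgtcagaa
Fabp2: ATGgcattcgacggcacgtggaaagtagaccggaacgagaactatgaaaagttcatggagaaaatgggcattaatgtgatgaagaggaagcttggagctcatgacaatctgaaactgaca
Fabp4: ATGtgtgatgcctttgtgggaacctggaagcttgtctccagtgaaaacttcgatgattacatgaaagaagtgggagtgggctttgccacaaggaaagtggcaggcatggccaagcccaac
Fabp5: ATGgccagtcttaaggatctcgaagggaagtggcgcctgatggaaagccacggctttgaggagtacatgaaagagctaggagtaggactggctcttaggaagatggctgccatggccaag
*Apoc1* has a short coding sequence of 264 bases, or 88 codons. The 4 fatty acid binding proteins all have 4 exons and between 127 and 135 codons. Their coding sequences were 50.6% to 61.9% identical in aligned bases. The closest pair was *Fabp4* and *Fabp5*, which lie on chromosome 3 with 187480 bases between them, and their longest shared run was 12 bases.

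Promoters are shown for *Fabp1*, *Apoa1* and *Apoa2*, 3 of the genes lower in mean FPKM in cKO that have an entry in the RefSeq promoter table (GRCm38.p6). Each is the 250 bases before the RefSeq start site, on the strand of the gene, and capitals mark the motifs named below. For *Fabp1* and *Apoa1* this start lies inside the gene as annotated in the expression table, which starts at 71199827 and 46228580. The last bases of these 2 windows, with the *Fabp1* TATAAA and its nearer AGGTCA, therefore lie inside the annotated genes.
Fabp1, chr6:71199629-71199878, plus strand: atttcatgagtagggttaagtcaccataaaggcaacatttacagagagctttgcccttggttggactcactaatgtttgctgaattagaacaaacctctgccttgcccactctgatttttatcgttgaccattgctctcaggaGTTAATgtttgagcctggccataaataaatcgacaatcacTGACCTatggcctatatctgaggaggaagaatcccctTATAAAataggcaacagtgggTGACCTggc
Apoa1, chr9:46228380-46228629, plus strand: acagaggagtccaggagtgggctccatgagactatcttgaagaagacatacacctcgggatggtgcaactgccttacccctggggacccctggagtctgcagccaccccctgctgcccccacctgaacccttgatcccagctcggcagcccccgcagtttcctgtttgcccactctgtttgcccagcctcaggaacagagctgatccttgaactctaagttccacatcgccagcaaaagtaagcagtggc
Apoa2, chr1:171224804-171225053, plus strand: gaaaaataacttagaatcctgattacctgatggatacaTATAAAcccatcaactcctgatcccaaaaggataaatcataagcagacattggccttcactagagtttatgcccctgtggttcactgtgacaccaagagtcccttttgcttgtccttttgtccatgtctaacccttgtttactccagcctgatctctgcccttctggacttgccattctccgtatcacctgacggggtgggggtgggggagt
Searched on both strands were AGGTCA (a hexamer bound by nuclear receptors), AGGTCANAGGTCA (its direct repeat, which contains it), CAAAGTCCA (the core bound by HNF4), GTTAAT (part of the HNF1 site) and TATAAA (the TATA box). The *Fabp1* promoter held TATAAA from 30 to 25 bases before the start, GTTAAT from 107 to 102 bases before it, and AGGTCA on the minus strand from 67 to 62 and from 9 to 4 bases before it. The *Apoa2* promoter held TATAAA from 212 to 207 bases before the start, and the *Apoa1* promoter held none of the 5 motifs. *Apoe* and *Fabp2*, also lower in mean FPKM in cKO, have entries that are not shown and held none of the 5. That of *Apob*, higher in cKO, held TATAAA from 60 to 55 bases before the start. Of the 32851 promoters of this length in the table, 12.4% held TATAAA, 14% AGGTCA, 6.43% GTTAAT, 0.384% CAAAGTCCA and 0.0335% the direct repeat. Entries were found for 6 of the 10 genes. *Apoc1*, *Fabp4*, *Fabp5* and *Lpl* had none.

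In mean FPKM, 6 of the 10 genes were lower in cKO and 4 were higher. No cKO sample reached the lowest Ctrl sample for 4 of them, *Apoc1*, *Apoa2*, *Fabp1* and *Fabp2*, beside 6.03% of all genes tested (*Fabp2* was below the filter of that test), and none of the 10 lay above in every cKO sample, beside 7.11%. Because the genes were selected on this contrast, nothing is read from these shares.

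**Figure D1:**
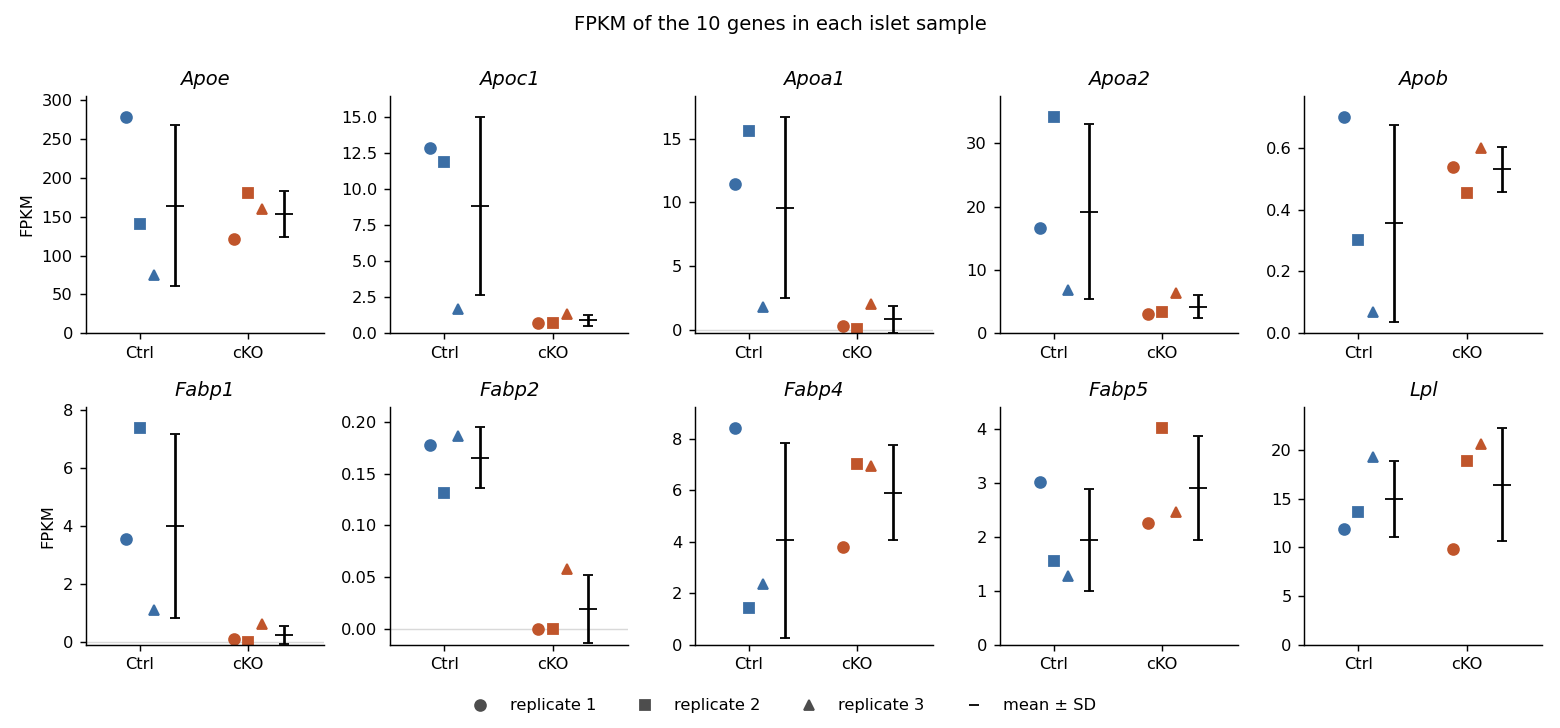
FPKM of the 10 genes on a linear axis for each gene, with a symbol per replicate of the 3 Ctrl (blue) and 3 cKO (orange) islet samples and the mean ± SD beside them. *Apoc1*, *Apoa2*, *Fabp1* and *Fabp2* have every cKO point below every Ctrl point, and in *Apoc1*, *Apoa1*, *Apoa2* and *Fabp1* the third Ctrl sample is close to the cKO samples.

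*Apoc1* (ENSMUSG00000040564, chromosome 7, 19689481 to 19692660, minus strand) encodes a small protein of triglyceride-rich particles and HDL that slows their clearance. Ctrl replicates 1, 2 and 3 had 12.9, 11.9 and 1.7 FPKM of it, resting on 167, 139 and 21 reads. The cKO replicates had 0.689, 0.696 and 1.34 FPKM, resting on 9, 9 and 18 reads. The groups did not overlap, but the third Ctrl sample was much nearer to the cKO samples than to the other Ctrl samples. The Ctrl mean was 8.81 ± 6.18 (SD, n = 3) and the cKO mean 0.907 ± 0.373, which is 9.71 times lower. The log2 fold change of FPKM + 1 was -2.06 (standard error 0.624), and lay between -2.83 and -1.64 with any 1 sample left out. Among the 13363 tested genes that averaged 1 FPKM or more this was, on the log2(FPKM + 1) scale, fall number 7, and number 1 among those whose groups did not overlap. *Apoc1* was selected on its fall and reached that average only through Ctrl, so these ranks restate the selection.

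*Apoa1* and *Apoa2* encode the chief proteins of HDL, and *Apoa1* also activates the enzyme that esterifies cholesterol on the particle. *Apoa1* (ENSMUSG00000032083, chromosome 9, 46228580 to 46230466, plus strand) was at 11.4, 15.6 and 1.75 FPKM in Ctrl replicates 1 to 3, against 0.322, 0.0931 and 2.06 in cKO replicates 1 to 3. The groups overlapped, since the third cKO sample was above the third Ctrl sample. The cKO values rested on 7, 2 and 46 reads. Its means were 9.60 ± 7.12 and 0.824 ± 1.07, and the log2 fold change was -2.33 (standard error 0.732).

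*Apoa2* (ENSMUSG00000005681, chromosome 1, 171225054 to 171226379, plus strand) was at 16.6, 34.1 and 6.83 FPKM in Ctrl replicates 1 to 3, against 2.97, 3.43 and 6.28 in cKO replicates 1 to 3. The lowest Ctrl value and the highest cKO value were again those of replicate 3 of each group, and they were close together. The means were 19.2 ± 13.8 and 4.23 ± 1.79, and the log2 fold change was -1.75 (standard error 0.540), or -1.22 without Ctrl replicate 2, which had the highest value. Unlike *Apoa1*, *Apoa2* kept 28 reads or more in every cKO sample.

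*Apoe* encodes the ligand through which remnant particles bind their receptors on cells. It was the most abundant of the 10 genes in every sample. *Apoe* (ENSMUSG00000002985, chromosome 7, 19696109 to 19699188, minus strand) lies 3448 bases from *Apoc1*. It read 278, 140 and 74.7 FPKM in Ctrl replicates 1 to 3, against 121, 180 and 160 in cKO replicates 1 to 3. The cKO samples lay inside the range of the Ctrl samples. The means, 164 ± 104 and 154 ± 29.9, were lower in cKO, whereas the mean log2 level was higher by 0.09 (standard error 0.454). With 1 sample left out the log2 fold change ran from -0.38, without Ctrl replicate 3, to 0.56, without Ctrl replicate 1. The ratio of *Apoc1* to *Apoe* was 0.0227 to 0.0846 in Ctrl and 0.00386 to 0.00835 in cKO, and these ranges did not overlap. As *Apoc1* was selected on its fall, nothing is read from this.

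*Apob* encodes the large scaffold protein of chylomicrons, VLDL and LDL. *Apob* (ENSMUSG00000020609, chromosome 12, 7977648 to 8016835, plus strand) was at 0.699, 0.301 and 0.0690 FPKM in Ctrl replicates 1 to 3, against 0.539, 0.454 and 0.599 in cKO replicates 1 to 3. The cKO values were close together and lay between the first and second Ctrl values. The log2 fold change was 0.20 (standard error 0.180), and 0.04 without Ctrl replicate 3.

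*Fabp1* encodes the fatty acid binding protein of liver, also found in the gut. *Fabp1* (ENSMUSG00000054422, chromosome 6, 71199827 to 71205023, plus strand) was at 3.52, 7.36 and 1.09 FPKM in Ctrl replicates 1 to 3, against 0.103, 0 and 0.6 in cKO replicates 1 to 3. The reads behind these values were 34, 64 and 10 in Ctrl against 1, 0 and 6 in cKO. No cKO sample reached the lowest Ctrl sample. In the cKO sample without a read, up to 3 reads are allowed by counting error, an FPKM of 0.312. The log2 fold change was -1.83 (standard error 0.493), fall number 12 among the 13363 genes and number 5 among those without overlap on this scale. These ranks restate the selection as well, since the cKO mean of *Fabp1*, 0.234, was under the average of 1 FPKM required. Summed over samples, 108 reads in Ctrl stood against 7 in cKO, a ratio per library size of 0.0609. As *Fabp1* was selected on this fall, no interval is given.

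*Fabp2* encodes the fatty acid binding protein of the small intestine. *Fabp2* (ENSMUSG00000023057, chromosome 3, 122895072 to 122899506, plus strand) was covered by 3, 2 and 3 Ctrl reads against 0, 0 and 1 cKO reads, at FPKM of 0.178, 0.132 and 0.187 against 0, 0 and 0.0573. Every library was at or under 3 reads, so no fold change is given, and its mean was under the 0.1 set for the test. An antisense gene, 4933405D12Rik, overlaps it at a mean FPKM of 0.122, and without a stated use of strand in counting the reads of the pair cannot be told apart.

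*Fabp4* encodes the fatty acid binding protein of adipocytes, macrophages and some endothelial cells. *Fabp4* (ENSMUSG00000062515, chromosome 3, 10204088 to 10208576, minus strand) was at 8.41, 1.42 and 2.36 FPKM in Ctrl replicates 1 to 3, against 3.78, 7.02 and 6.95 in cKO replicates 1 to 3. The first Ctrl sample was the highest of all 6, and the other Ctrl samples were below every cKO sample. The log2 fold change was 0.67 (standard error 0.510). Without Ctrl replicate 1 it was 1.24, and without Ctrl replicate 2 it was 0.26.

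*Fabp5* encodes the epidermal member of the family, which many cell types make. *Fabp5* (ENSMUSG00000027533, chromosome 3, 10012548 to 10016607, plus strand) was at 3.02, 1.55 and 1.26 FPKM in Ctrl replicates 1 to 3, against 2.25, 4.01 and 2.46 in cKO replicates 1 to 3. The groups overlapped only through the first Ctrl sample. The log2 fold change was 0.43 (standard error 0.268), and 0.68 without Ctrl replicate 1. The 2 annotated processed pseudogenes of *Fabp5* in the table were listed at 0 in every sample.

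*Lpl* (ENSMUSG00000015568, chromosome 8, 68880491 to 68907448, plus strand) was at 11.9, 13.7 and 19.4 FPKM in Ctrl replicates 1 to 3, against 9.85, 18.9 and 20.6 in cKO replicates 1 to 3. The lowest and the highest sample were both cKO samples. The means were 15.0 ± 3.88 and 16.5 ± 5.79, and the log2 fold change was 0.09 (standard error 0.298), which ran from -0.09 to 0.40 when 1 sample was left out.

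**Figure D2:**
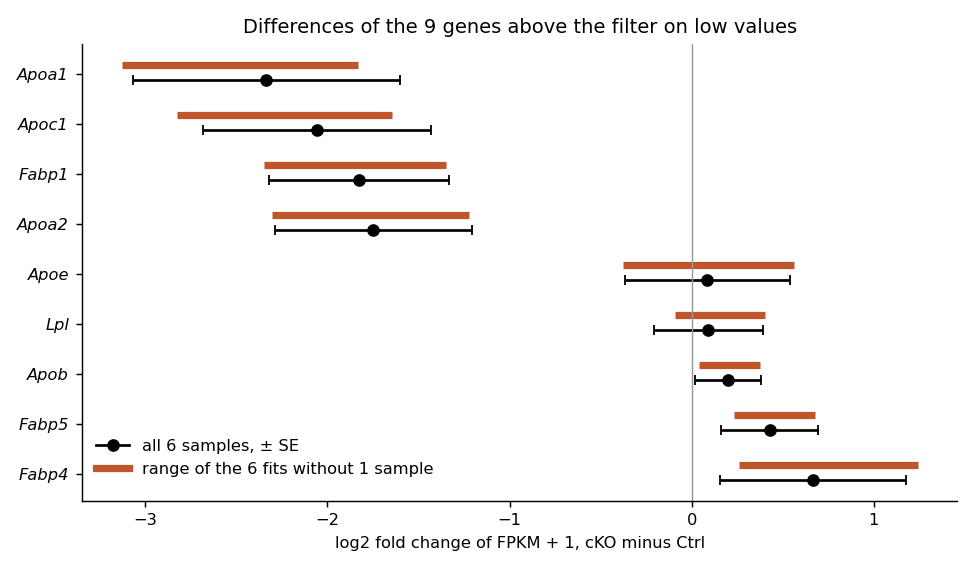
Log2 fold change of FPKM + 1 (cKO minus Ctrl) of the 9 genes above the filter on low values, with the standard error from limma (black) and the range over 6 fits, each without 1 sample (orange). *Apoa1*, *Apoc1*, *Fabp1* and *Apoa2* stay between -3.13 and -1.22, whereas the ranges of *Apoe* and *Lpl* cross 0.

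With a pseudocount of 0.1 in place of 1, which weighs low values more, the log2 fold changes were -3.71 for *Fabp1*, -3.63 for *Apoa1*, -2.76 for *Apoc1* and 0.73 for *Apob*, so the order of the falls depends on the pseudocount.

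Of the 6 genes lower in mean FPKM, 4 shared a pattern over the samples, noticed after their values were seen. In *Apoc1*, *Apoa1*, *Apoa2* and *Fabp1*, replicate 3 was the lowest Ctrl sample and the highest cKO sample, as it was in 9.49% of all genes tested. *Apoe* and *Fabp2*, also lower in mean FPKM, did not follow it, and *Apob*, higher in cKO, did. Markers of hepatocytes followed this pattern in 6 of 6 genes, and those of macrophages in 7 of 10. Summed, the hepatocyte markers reached 86.8, 43.6 and 6.63 FPKM in Ctrl against 1.36, 0.518 and 19.5 in cKO. *Alb*, serum albumin and the highest of them, had 67.3, 28.3 and 4.88 in Ctrl against 0.972, 0.246 and 15.4 in cKO. All 6 were lower in mean log2 level in cKO, and 1 of them, the cytochrome P450 gene *Cyp2e1*, was lower at an unadjusted p of 0.0149 (limma adjusted p = 0.545). In bulk islets, fewer cells of a type and less RNA per cell cannot be told apart. The part of these markers in the falls of the apolipoproteins and *Fabp1* was not tested.

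The ratio of *Apoa1* to *Alb* stayed between 0.133 and 0.552 over the 6 samples. That of *Apoc1* ran from 0.0868 in cKO replicate 3 to 2.83 in cKO replicate 2. That of *Apoa2* ran from 0.247 in Ctrl replicate 1 to 14.0 in cKO replicate 2. That of *Ahsg*, another plasma protein gene among the markers, stayed between 0.0267 and 0.136. The ratio of *Fabp1* ran from 0 to 0.260, and those of the apolipoproteins *Apoc3* and *Apoh* from 0.0248 to 0.462 and from 0 to 0.294. In cKO replicates 1 to 3, *Alb* rested on 40, 10 and 653 reads and *Ahsg* on 1, 1 and 59. The ratios of cKO replicates 1 and 2 therefore rest on few reads.

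**Figure D3:**
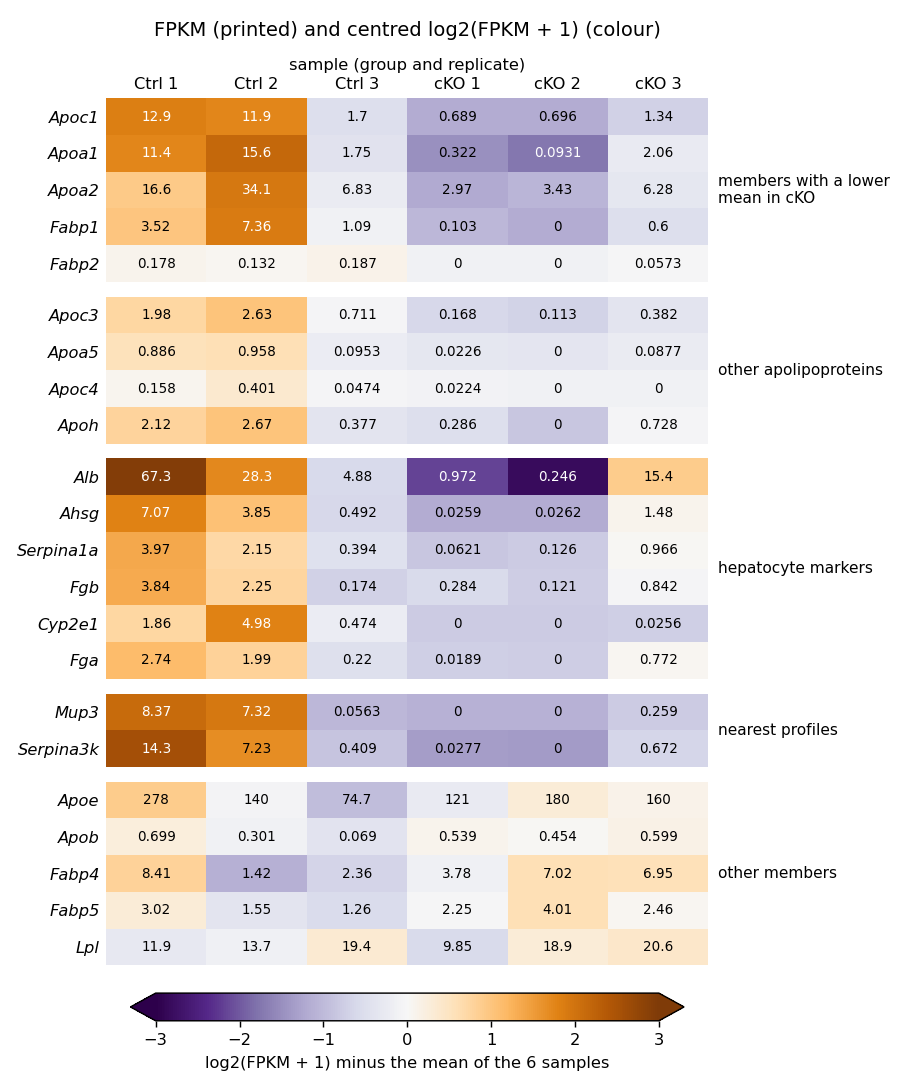
FPKM (printed) of the 10 genes, 4 other apolipoproteins, 6 hepatocyte markers and *Mup3* and *Serpina3k* in each of the 6 samples, coloured by log2(FPKM + 1) minus the mean of that gene over the samples. In the first 4 groups, apart from *Fabp2*, the first 2 Ctrl samples are the highest and the other samples are low, whereas *Apoe*, *Fabp4*, *Fabp5* and *Lpl* have other patterns. The 4 other apolipoproteins are part of a list of 10 tested, of which 8 were lower in mean log2 level in cKO. The 2 higher ones, *Clu* and *Apod*, are not shown. Replicate 3 was the lowest Ctrl and the highest cKO sample in 5 of the 10.

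Like profiles were sought among the tested genes that averaged 1 FPKM or more. The genes whose centred log2 profile over the 6 samples was most like that of *Apoc1* were *Mup3*, *Serpina3k* and *Apoa1*, with root mean square differences of 0.257, 0.346 and 0.369. *Mup3* encodes a major urinary protein and belongs to a family of near-identical copies, so its reads are uncertain. Its FPKM was 8.37, 7.32 and 0.0563 in Ctrl against 0, 0 and 0.259 in cKO. *Serpina3k*, a plasma protease inhibitor gene, had 14.3, 7.23 and 0.409 in Ctrl against 0.0277, 0 and 0.672 in cKO. For *Fabp1* the nearest profiles were those of *Apoa2* (0.124), *Cyp2e1* (0.249) and the microRNA gene *Mir7655* (0.294). *Alb* was farther from both, at 1.12 from *Apoc1* and 1.29 from *Fabp1*. This difference counts the size of the changes as well as their pattern. *Apoc1* and *Fabp1* were selected on their falls, so these likenesses restate the selection in part. *Mup3*, *Serpina3k*, *Cyp2e1* and *Mir7655* also reached the average of 1 FPKM only through Ctrl. *Alb*, which ran from 67.3 to 0.246 FPKM, also had replicate 3 as its lowest Ctrl and highest cKO sample.

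Of the 7 enterocyte markers, *Vil1* was at 21.3 to 38.4 in all samples and *Rbp2* at 0.179 to 0.875. The enterocyte genes *Alpi* and *Cdx1* were listed at 0 in every sample, and *Sis* and *Lct* did not exceed 0.0444. The enterocyte list summed to 21.5 to 27.7 in Ctrl and 27.2 to 38.9 in cKO. Adipocyte markers summed to 0.0324 to 1.29 in Ctrl and 0.139 to 0.867 in cKO, led by *Car3*, with *Lep* at 0 throughout and *Adipoq* at 0.0830 or less.

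*Apoe*, *Apob* and *Fabp4* were highest in Ctrl replicate 1 (3 of the 5 genes with a higher mean log2 level in cKO, with *Fabp5* and *Lpl*), against 22.1% of all genes tested. Macrophage markers summed to 842 in that sample and to between 111 and 219 in the other 5. *Lyz2*, macrophage lysozyme and the highest of the list, had 539 there and 15.6 to 56.0 elsewhere. Of the 10 macrophage genes, none passed an unadjusted p under 0.05 in either direction. Endothelial markers summed to 115 to 131 in Ctrl and 136 to 171 in cKO, and *Plvap*, the highest, was higher in cKO (log2 fold change 0.43, unadjusted p = 0.0145, limma adjusted p = 0.545), as was *Cdh5* (0.36, unadjusted p = 0.0289, limma adjusted p = 0.616). *Plvap*, at 57.7 to 72.4 in Ctrl and 80.6 to 101 in cKO, made up the largest part of each sum. Of the 8 genes, 6 were higher and 2, *Emcn* (-0.12) and *Gpihbp1* (-0.19), lower in mean log2 level in cKO. The groups were without overlap in 3 of the 8. Stromal markers, led by *Dcn*, summed to 7.37 to 14.6 in Ctrl and to 11, 33.6 and 35.9 in cKO, and *Fabp4* and *Fabp5* were lowest of the cKO samples in the first as well. The part of these cell types in the values of *Apoe*, *Fabp4* and *Fabp5* was not tested.

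**Figure D4:**
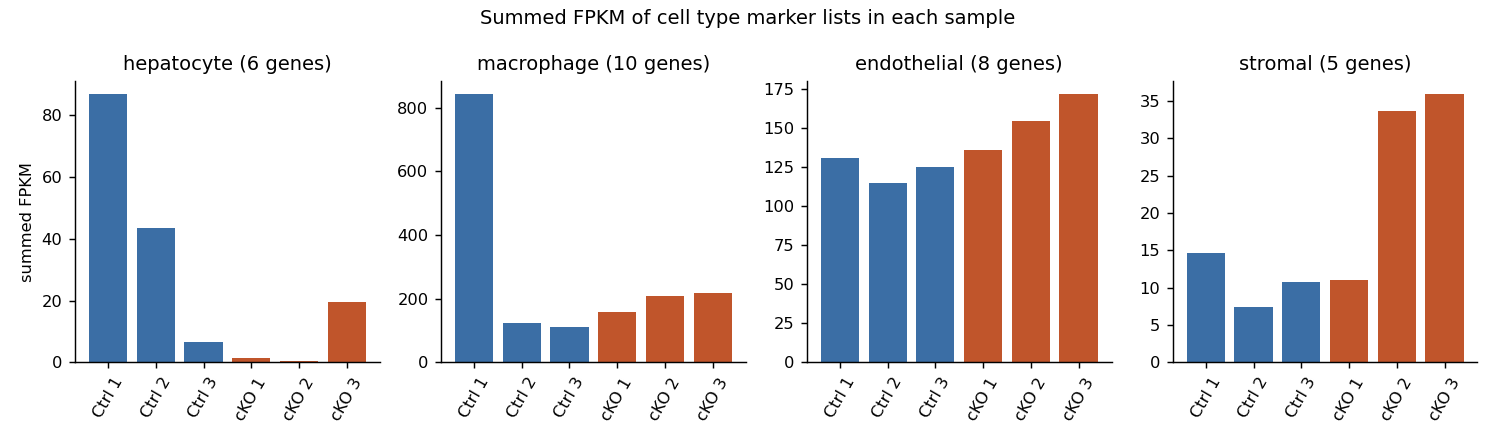
Summed FPKM of the hepatocyte, macrophage, endothelial and stromal marker lists in each of the 6 samples (bars from 0, blue Ctrl, orange cKO; each panel has its own axis). The hepatocyte sum is highest in the first 2 Ctrl samples, the macrophage sum of 842 in Ctrl replicate 1 stands above all others, and the endothelial sums, of which *Plvap* is the largest part, are higher in the cKO samples than in the Ctrl samples.

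The other cell types of the islet and its surroundings were measured as well. The acinar list, led by *Ctrb1*, summed to 7175 to 19632 in Ctrl and 8916 to 32361 in cKO. The ductal list, led by *Spp1*, summed to 30.7 to 70.0 in Ctrl and 43.3 to 57.4 in cKO, and the Schwann list to 5 to 9.17 and 7.36 to 10.1. *Ppy*, of PP cells, lay between 6846 and 17895. The β-cell list, led by *Ins2*, summed to 234546 to 274956 in Ctrl and 193706 to 215896 in cKO, with 1 of its 8 genes, *Ucn3*, lower at an unadjusted p under 0.05 (limma). The δ-cell list, led by *Sst*, summed to 4174 to 6830 in Ctrl and 4957 to 7827 in cKO, and the α-cell list, led by *Gcg*, to 11076 to 16342 and 8753 to 16308.

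In Ctrl, the order of the genes by mean FPKM was *Apoe*, *Apoa2*, *Lpl*, *Apoa1*, *Apoc1*, *Fabp4*, *Fabp1*, *Fabp5*, *Apob* and *Fabp2*. The ranges of neighbours in this order overlapped in 7 of 9 pairs, and were apart between *Apoe* and *Apoa2* and between *Fabp5* and *Apob*. In cKO the order was *Apoe*, *Lpl*, *Fabp4*, *Apoa2*, *Fabp5*, *Apoc1*, *Apoa1*, *Apob*, *Fabp1* and *Fabp2*, with 6 of 9 neighbouring ranges overlapping. *Apoe* stood above 99.4% of the genes with a value above 0 in both groups. *Apoc1* stood above 83.8% in Ctrl and 49.5% in cKO, and *Fabp1* above 70.8% and 32.9%. The spread between the Ctrl samples was wide for most of these genes: the SD of the log2 level of *Apoc1* in Ctrl, 1.33, was above that of 99.0% of the genes tested, and that of *Apoa1*, 1.39, above 99.1%.

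Levels between genes depend on the length used. The gene lengths in the table are the union of all annotated exons, 4489 bases for *Fabp4*, 3567 for *Fabp5* and 10478 for *Lpl*, whereas their principal protein-coding transcripts have 896, 987 and 4115 bases. Per length of these transcripts, a choice made after seeing the data, *Lpl* took place 2 (mean FPKM 38.2 with that length), *Fabp4* place 3 (20.4) and *Apoa2* place 4 (19.9) in Ctrl, and *Fabp5* place 4 in cKO (10.5). The place of *Apoe* at the top and of *Fabp2* at the bottom were the same.

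The remaining genes of lipid transport were grouped into 8 lists by role, of 84 genes in all, of which 70 passed the filter. At an unadjusted p under 0.05, 6 were lower (8.57%, beside 3.07% of all genes) and 6 were higher (8.57%, beside 4.33%), with 0 called by limma at an adjusted p under 0.05. The groups did not overlap in 15 of the 70, with cKO below in 8 (11.4%, beside 6.03% of all genes) and above in 7 (10%, beside 7.11%). The median log2 fold change over the 70 genes was -0.00108, beside -0.0145 over all genes tested. Over the alternatives of the fit, *Apoc3* kept an unadjusted p under 0.05 in 14 of 14, *Pparg* in 14 of 15 and *Slc27a2* in 13 of 14, and the other 9 of these 12 genes in 6 to 11 of 14 or 15.

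Among the other apolipoproteins, 2 of 10 tested were lower and none was higher, with a list median of -0.36. *Apoc3*, an inhibitor of lipoprotein lipase encoded 2466 bases from *Apoa1*, had an FPKM of 1.98, 2.63 and 0.711 in Ctrl against 0.168, 0.113 and 0.382 in cKO (log2 fold change -1.12, unadjusted p = 0.00638, limma adjusted p = 0.471). *Apoa5*, an activator of lipase action from the same cluster, had 0.886, 0.958 and 0.0953 in Ctrl against 0.0226, 0 and 0.0877 in cKO (log2 fold change -0.62, unadjusted p = 0.0339, limma adjusted p = 0.630). *Apoc2*, the cofactor of lipoprotein lipase in the cluster of *Apoe* and *Apoc1*, was listed at 0 in every sample. The highest of the list was *Clu*, the secreted chaperone clusterin, at 38.5 to 63.3 in Ctrl and 43.6 to 64.1 in cKO. *Saa3*, an inflammatory apolipoprotein, came next through Ctrl replicate 1 alone, at 36.9 there and at most 0.530 elsewhere.

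Of the other intracellular lipid binding proteins, none of 5 tested passed. The highest were *Rbp7* (11.3 to 34.5 in Ctrl and 12.4 to 22.3 in cKO), a retinol binding protein, and *Fabp3* (8.5 to 18 and 9.27 to 12.4), the fatty acid binding protein of heart and muscle.

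Of 8 genes of lipoprotein assembly tested, 2 were higher and none was lower. *Mttp*, which loads lipid onto the *Apob* product, was higher in cKO (log2 fold change 0.33, unadjusted p = 0.0220, limma adjusted p = 0.582), with 2.65 to 3.03 in Ctrl and 3.46 to 4.31 in cKO. *Surf4*, a cargo receptor of the endoplasmic reticulum, was higher by 0.24 (unadjusted p = 0.0494, limma adjusted p = 0.673). *P4hb*, the partner subunit of *Mttp*, was the highest of the list, at 239 to 256 in Ctrl and 257 to 328 in cKO, with no overlap but an unadjusted p of 0.0907 (limma).

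Of 10 lipases and partners of *Lpl* tested, *Sel1l*, needed for *Lpl* to leave the endoplasmic reticulum, was higher by 0.28 (unadjusted p = 0.0456, limma adjusted p = 0.665), at 15.0 to 17.1 in Ctrl and 17.9 to 22.6 in cKO. *Pnpla2*, a triglyceride lipase of lipid droplets, was next by level, with at most 12.7 in Ctrl and 12.3 in cKO.

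Of 10 lipoprotein receptor genes tested, none was higher at an unadjusted p under 0.05. *Vldlr*, the VLDL receptor, had 3.97, 5.05 and 7.04 in Ctrl against 3.70, 3.37 and 3.15 in cKO (log2 fold change -0.50, unadjusted p = 0.0316, limma adjusted p = 0.626). *Sorl1*, a sorting receptor, had a log2 fold change of -0.44 (unadjusted p = 0.0434, limma adjusted p = 0.662). *Sort1*, sortilin, was the highest, at 20.2 to 30.8 in Ctrl and 22.9 to 23.1 in cKO. In *Vldlr* and *Sorl1* the third Ctrl sample was the highest of the Ctrl samples, whereas in *Apoc1* and *Fabp1* it was the lowest.

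None of the 5 genes of cholesterol efflux passed; the highest, *Abca7* and *Abcg1*, lay at 14.7 to 20.6 and 11.4 to 19.5 in Ctrl and at 13.8 to 16.7 and 12.6 to 16.6 in cKO. Of 11 genes of fatty acid transport and activation tested, the fatty acid activating enzymes *Acsl5* and *Acsl4* were higher, by 0.23 (unadjusted p = 0.0213, limma adjusted p = 0.581) and 0.31 (unadjusted p = 0.0394, limma adjusted p = 0.651), and *Slc27a2*, a fatty acid transporter of liver and kidney, was lower (log2 fold change -0.35, unadjusted p = 0.0163, limma adjusted p = 0.546). *Got2*, the highest of that list, stayed at 13.9 to 15.0.

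Of 11 transcription factor genes known to act on these families, *Pparg*, whose receptor drives *Fabp4* in fat cells, was higher in every cKO sample, at 2.13, 2.76 and 2.52 in Ctrl against 3.26, 3.37 and 3.84 in cKO (log2 fold change 0.37, unadjusted p = 0.0176, limma adjusted p = 0.553). The highest were *Nr1h2*, an oxysterol receptor, at 18.2 to 20.4 in Ctrl and 16.6 to 18.7 in cKO, and *Rxra*, its dimer partner, at 8.30 to 8.98 and 8.17 to 8.87.

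**Figure D5:**
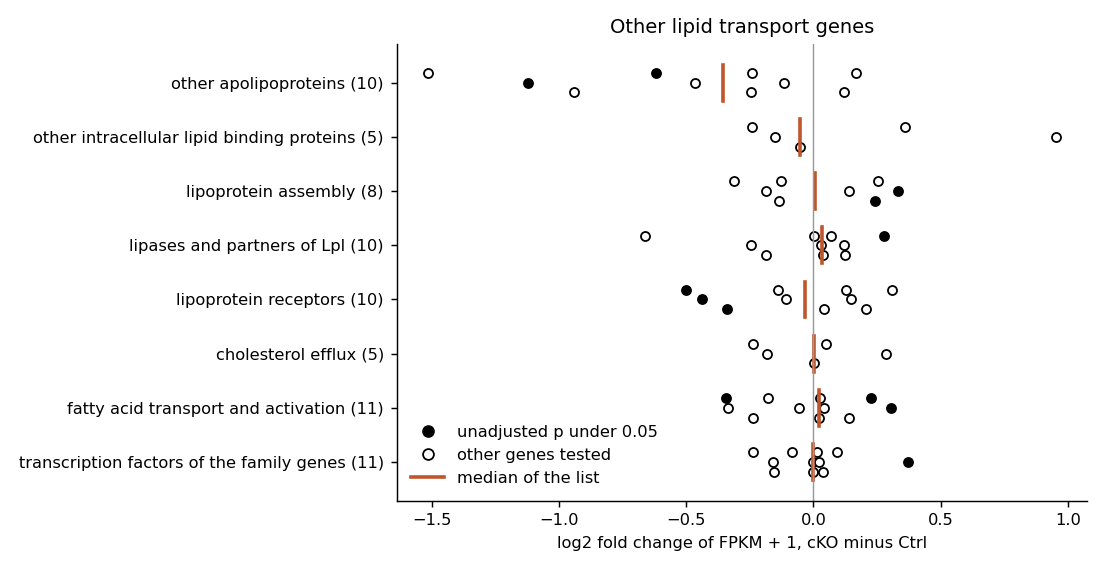
Log2 fold change of FPKM + 1 (cKO minus Ctrl) of the 70 other lipid transport genes tested, by list, with the number of genes tested in parentheses and the median of each list in orange. Filled points passed an unadjusted p under 0.05 (6 lower and 6 higher), and the median of the other apolipoproteins, -0.36, is the farthest from 0.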

How the data were processed

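Islet RNA of 3 Ctrl and 3 cKO samples, grouped by the labels, was analysed. The authors isolated RNA with TRIzol, used a SMARTER mRNA library kit and deposited FPKM, with replicates kept apart. The submitters' processing notes name GRCm38 and mm10. The aligner, the counting tool and whether strand was used are not given in the sources used here. FPKM multiplied by length came in whole steps (within 0.1 read) for 100% of values, so the reads behind each value could be recovered, for depth and for 1 alternative only.

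Values of log2(FPKM + 1) were compared with limma 3.58.1 in R 4.3.3 (trended empirical Bayes, two-sided p-values, Benjamini-Hochberg) for genes whose mean FPKM reached 0.1. A fold change on this scale understates that of low genes. As nothing states that samples were separate animals, p-values measure the spread between these samples, which may be technical. The 10 genes and all lists were chosen with earlier results of these data known. Named beside the 10 genes are list genes at an unadjusted p under 0.05, the 2 highest genes of each role list, the highest gene of each marker list, the 3 nearest profiles of *Apoc1* and of *Fabp1*, and *Parn*, *Ins1* and *Ins2* as checks. Other names were chosen after their values were seen, and some genes that were tested are not reported here. Of 7 hepatocyte markers, 6 were matched by symbol. The code was tested on simulated data. Sequences are from GENCODE M21 transcripts and RefSeq promoters (GRCm38.p6), and figures were drawn with matplotlib 3.10.9.

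Deviations from the group means of same-numbered samples correlated at -0.171, -0.0219 and -0.0652. This gave no sign of pairing by replicate number, but with 3 samples per group it cannot exclude pairing.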

Additional observations from a re-analysis of the deposited data

How the results depend on the processing

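The number of genes at an adjusted p under 0.05 was 0 under all alternatives except leaving out Ctrl replicate 1, which gave 14 (range 0 to 14 over the 6 fits without 1 sample). Leaving out 1 sample gave 401 to 1142 lower genes and 683 to 1231 higher genes at an unadjusted p under 0.05. For the other lipid transport genes it gave 2 to 9 lower and 0 to 7 higher. Of the 10 genes described, 4 to 7 of those above the filter had a lower mean log2 level, 7 without cKO replicate 2. *Fabp2*, below the filter with all samples, passed it in 2 of these fits and is counted in those 7. Rescaling FPKM to the same sum gave 307 lower and 1789 higher genes and 3 lower lipid transport genes, and moved the median of all genes from -0.0145 to 0.0687. Rescaling without *Ins1* and *Ins2* gave 3 higher lipid transport genes, a minimum mean FPKM of 1 gave 3 lower ones, and sample weights gave 1245 lower genes and 13 lower lipid transport genes. The causes were not tested.

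No pairing by replicate number was seen in the deviations, which cannot exclude it. With the replicate block, 538 genes were lower and 737 higher at an unadjusted p under 0.05, and 3 lipid transport genes were lower and 1 higher. *Apoc1*, *Apoa1*, *Apoa2* and *Fabp1* were lower in cKO in 15 of 15 alternatives, *Apoe* in 2 and *Lpl* in 3.

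With voom on the recovered reads the log2 fold changes were -2.84 for *Apoc1*, -3.94 for *Apoa1*, -1.94 for *Apoa2* and -4.15 for *Fabp1*. Levels of *Fabp1* in cKO rest on 7 reads and those of *Fabp2* on 1, so depth limits both.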
